A study of Rattus norvegicus with 12 samples.

Results

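The subject is a set of 173 genes whose RNA was strongly reduced in rat retinas with oxygen-induced retinopathy (OIR). A gene belonged to the set when its mean log2(TPM + 1) over the 6 OIR libraries lay more than 0.8 below its mean over the 6 sham libraries. Each OIR value also had to lie below each sham value, and the mean over all 12 libraries had to be under 1000 TPM. The unit, TPM, corrects reads for the length of the gene and the size of the library, so levels of different genes can be set side by side. Of the 32883 genes in the table, 258 passed the first condition, 179 the first and second, and 178 all of them. A further 5 were left out because their identifiers were on a list of 16 to be omitted. The genes were thus chosen by their TPM values in OIR against sham, so that contrast is described below and is not tested in them.

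The series compared 4 groups of 3 retinal libraries taken at postnatal day 18 from Sprague Dawley rats, labelled wild type. Animals with OIR were given either a scrambled RNA or a mimic of the microRNA miR-143, and sham controls were given either the scrambled RNA or the mimic. The labels record no allele, transgene or other agent. In the column names each mimic library bears the letter L and each scrambled library R. This letter cannot be told apart from the RNA given. Whether each library is a separate animal is not recorded in the labels. P-values therefore measure the spread between these libraries, which may be technical.

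The retina is a layered nervous tissue in which photoreceptors pass signals through bipolar cells to ganglion cells, with horizontal and amacrine cells acting across that path and Muller glia spanning it. In OIR, young animals are exposed to altered oxygen, which first halts vessel growth and then leaves the inner retina short of oxygen, and abnormal new vessels follow. A microRNA guides a silencing complex to messenger RNAs through its seed, the bases near its 5′ end, and the matched messenger RNAs are usually lowered. miR-143 is best known from vascular smooth muscle.

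The mature arms of rat miR-143 are shown because the mimic is the other variable that the labels name, with the seed (bases 2 to 8) in capitals. They come from RefSeq on build GRCr8, where they lie on the minus strand of chromosome 18 at chr18:57371373-57371394 (3p) and chr18:57371408-57371428 (5p). The labels do not say which arm the mimic carries. They read, 5′ to 3′:
rno-miR-143-3p: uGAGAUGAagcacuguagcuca
rno-miR-143-5p: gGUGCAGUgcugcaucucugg

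The table pairs none of its Ensembl identifiers with a name, and 0 of them matched the RefSeq gene table used here. The 173 genes are therefore described by level, size of fall, length and library, and 2 are given by identifier. Neither the retinal identity of the samples nor the presence of other cell types could be checked against marker genes. In bulk tissue such as this, fewer cells of a type and less RNA per cell cannot be told apart. The labels' protocol describes the preparation of miRNA libraries, whereas the rows of the table are Ensembl genes, and the TPM were read here as gene expression. Which RNA the libraries held was not tested, and this limits what each TPM means, above all for features of 80 to 105 bases. Whole reads were recovered from the TPM values, and the libraries held 10537303 to 13174627 reads on genes. Tests used the 15916 genes with at least 1 TPM in at least 3 libraries, which include 172 of the 173. The remaining gene stood near 1 TPM in sham and at 0 in OIR.

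The 173 genes together made up 0.795 ± 0.0208% of all TPM in sham retinas and 0.405 ± 0.0712% in OIR retinas (SD, n = 6 each). No OIR library exceeded 0.49% and no sham library was under 0.756%, with extremes of 0.281% in OIR and 0.817% in sham. Per gene, the OIR mean was 0% to 57.9% of the sham mean, with a median of 48.9%, and it was under 50% of the sham mean in 97 genes. On the log2(TPM + 1) scale the difference ranged from -3.33 to -0.80, with a median of -0.93, and 64 genes lay below -1. The median difference of all tested genes was 0.04. Groups that do not overlap in this direction were found in 7.89% of tested genes. In the set this holds by construction. The lowest sham TPM of a gene was 1.04 to 56.2 times its highest OIR TPM, with a median of 1.39 over the 172 genes above 0 in OIR. This gap exceeded 1.5 times in 51 genes and 2 times in 11.

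**Figure D1:**
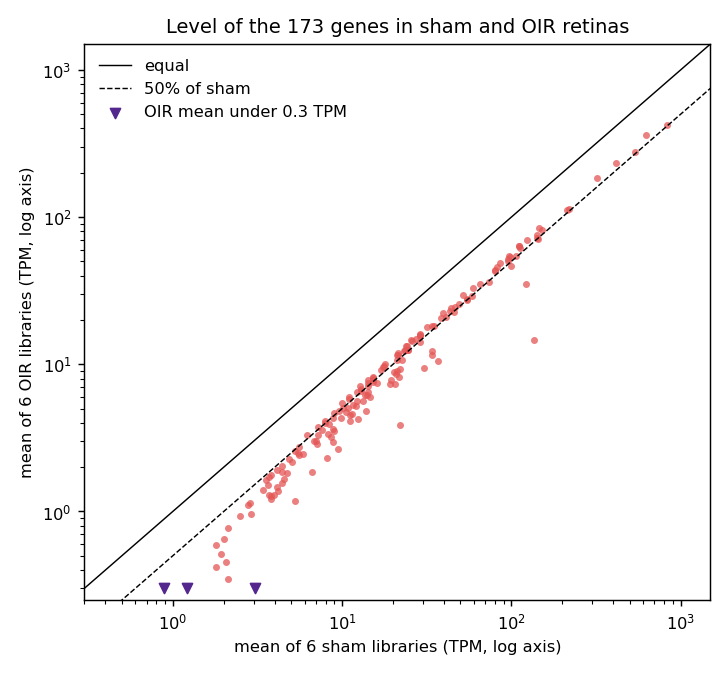
Mean TPM over the 6 sham libraries (x axis, log) against mean TPM over the 6 OIR libraries (y axis, log) for each of the 173 genes; the lines mark equality and 50% of the sham mean, and triangles mark 3 genes with an OIR mean under 0.3 TPM drawn at that value. Most points lie along the 50% line over the whole range of levels, as the choice of genes favours, with a few far below it.

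Sham means of the set ran from 0.885 to 833 TPM with a median of 14.6, against a median of 19.9 for all tested genes. There were 32 genes under 5 TPM in sham (18.5%, against 25.1% of tested genes), 30 between 5 and 10 (17.3%, against 10.7%), 92 between 10 and 100 (53.2%, against 52.0%), and 19 between 100 and 1000 (10.98%, against 11.7%). The median difference changed little over these classes, at -0.93, -0.96, -0.91 and -0.91 from the lowest to the highest. The log2(TPM + 1) scale understates the change of low genes, so a gene under 5 TPM had to fall by a larger factor to enter the set.

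The largest fall among genes with a sham mean of at least 5 TPM was that of ENSRNOG00000032869. Its TPM in sham retinas was 49.2, 134 and 70.9 with scrambled RNA and 166, 35.8 and 359 with the mimic, from replicate 1 to 3. In OIR retinas it was 1.94, 22.8 and 22.9 with scrambled RNA and 1.33, 7.17 and 31.4 with the mimic. The groups did not overlap, but the lowest sham library, 35.8 TPM, stood close to the highest OIR library, 31.4 TPM, and the sham libraries reached 359 TPM. The mean fell from 136 ± 120 to 14.6 ± 12.7 TPM (SD, n = 6 each). The log2 difference was -2.73 (SE 1.22) with scrambled RNA and -3.94 (SE 1.22) with the mimic. These values rest on 3352 reads in sham and 328 in OIR over a recovered length of 684 bases.

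The next largest fall was that of ENSRNOG00000059139, a feature with a recovered length of only 95 bases. Its TPM in sham was 10.4, 16.3 and 40.6 with scrambled RNA and 20.7, 30.6 and 13.2 with the mimic. In OIR it was 9.96, 7.30 and 0 with scrambled RNA and 1.92, 1.78 and 2.08 with the mimic. The highest OIR library, OIR scrambled replicate 1, almost reached the lowest sham library. The log2 difference was -2.16 (SE 0.79) with scrambled RNA and -2.87 (SE 0.79) with the mimic. Only 74 reads in the 6 sham libraries and 12 in the 6 OIR libraries lie behind these values, so their counting error is large.

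The gene of rank 3 by fall was chosen for description after its values were seen. Its sham libraries had 2.36 to 3.81 TPM with a median of 3.16. In OIR it was listed at 0 in 5 libraries and at 0.042 TPM in OIR scrambled replicate 3. Over a recovered length of 4236 bases, 61 to 82 reads per sham library stood against 1 read in all 6 OIR libraries. Unlike the pair above it, this gene varied little in sham, with a mean of 3.05 ± 0.574 TPM (SD, n = 6).

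A single gene was listed at 0 in each OIR library, and its sham values of 0.72 to 1.39 TPM rest on 7 reads in all. A further 5 genes were at 0 in at least 1 OIR library, so 6 in all, while no gene of the set was at 0 in a sham library.

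Below the first few genes the falls were more even. The 20 genes with the largest falls at a sham mean of at least 5 TPM had differences from -3.33 to -1.20. The gene of rank 4 stood at 84.2 to 168 TPM in sham and 17.8 to 75.4 TPM in OIR, where OIR scrambled replicate 1 was highest and the next library had 46.0 TPM. The gene of rank 5 had a mean of 37.1 ± 9.81 TPM in sham and 10.5 ± 3.00 TPM in OIR, and the gene of rank 6 had 30.5 ± 3.20 and 9.44 ± 2.47 TPM (SD, n = 6 each). For the latter, the lowest sham library had 27.8 TPM and the highest OIR library 12.3 TPM, a wide gap. Several of these 20 features are short. Recovered lengths of 95, 105, 298, 376 and 399 bases occur among the first 9 of them, against a median of 2337 bases in the whole set.

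The most abundant genes of the set fell by amounts near its median, with differences of -1.03, -0.83 and -0.99 for the first 3. They too were singled out after their values were seen. The first by sham level, a feature of 80 bases, had 613 to 1070 TPM in sham (median 823) and 190 to 568 TPM in OIR (median 471). The second had 600 to 652 TPM in sham (median 630) and 231 to 448 TPM in OIR (median 372). The third had 526 to 575 TPM in sham (median 537) and 176 to 351 TPM in OIR (median 280). In each of the 3 the lowest OIR value came from OIR mimic replicate 2 and the highest from OIR scrambled replicate 1. The last 2 of these rest on at least 2769 reads in every library, so counting error is small for them.

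The members just inside the threshold had differences of -0.8002, -0.8014, -0.8014, -0.8018 and -0.8036. The 5 genes just outside it that met the other conditions had -0.799, -0.797, -0.796, -0.795 and -0.794. The levels of the first 5 lay between 3.69 and 25.8 TPM in sham and those of the others between 5.27 and 69.4 TPM. A further 79 genes fell below -0.8 but had groups that overlapped, so they are not in the set. The mirrored rule for genes raised in OIR would take 459 genes.

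The genes of the set varied more over the 6 OIR libraries than over the 6 sham libraries. The SD of a gene over the 6 sham libraries had a median of 0.14 on the log2 scale, equal to that of all tested genes. Over the 6 OIR libraries the median SD was 0.30, against 0.17 for all tested genes. These libraries span both arms, and the rule used their values. Within arms the median SD was 0.16 in OIR scrambled libraries (0.12 for tested genes) and 0.27 in OIR mimic libraries (0.16 for tested genes). It was 0.13 in each sham arm. The SD was wider in OIR than in sham for 153 of the 173 genes (88.4%) and for 61.8% of tested genes. The genes had a median of 232 reads per library in sham and 96 in OIR, and the part of counting error in the wider spread was not tested.

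**Figure D2:**
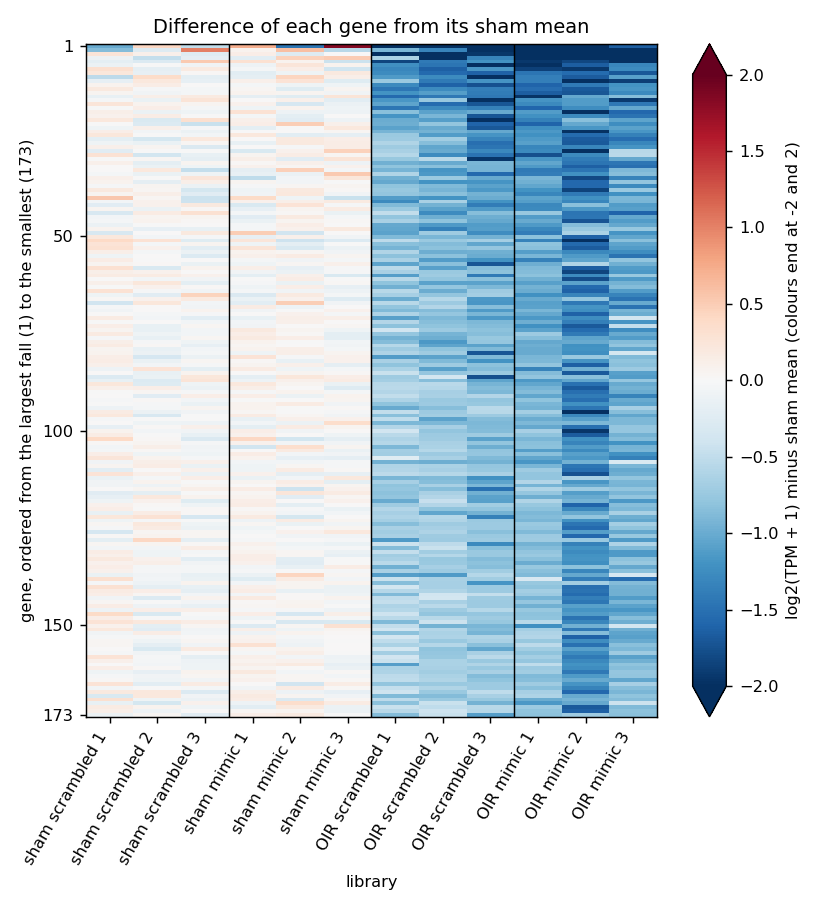
Each row is 1 of the 173 genes, ordered by fall, and each column 1 of the 12 libraries in 4 groups; colour gives log2(TPM + 1) minus the gene's sham mean, ending at -2 and 2. The 6 sham columns are pale, with departures mainly among the first rows, and OIR mimic replicate 2 is the darkest column over most of the 173 rows.

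The OIR libraries were ordered by how far the set had fallen. The median difference from the sham mean over the 173 genes was -0.71, -0.77 and -0.90 in OIR scrambled replicates 1, 2 and 3. It was -0.93, -1.31 and -0.99 in OIR mimic replicates 1, 2 and 3. Each mimic library thus lay below each scrambled library, although OIR scrambled replicate 3 and OIR mimic replicate 1 nearly coincided. In the 6 sham libraries the medians stayed between -0.04 and 0.04. For all tested genes the OIR medians were 0.04 to 0.08, apart from -0.06 in OIR mimic replicate 2.

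**Figure D3:**
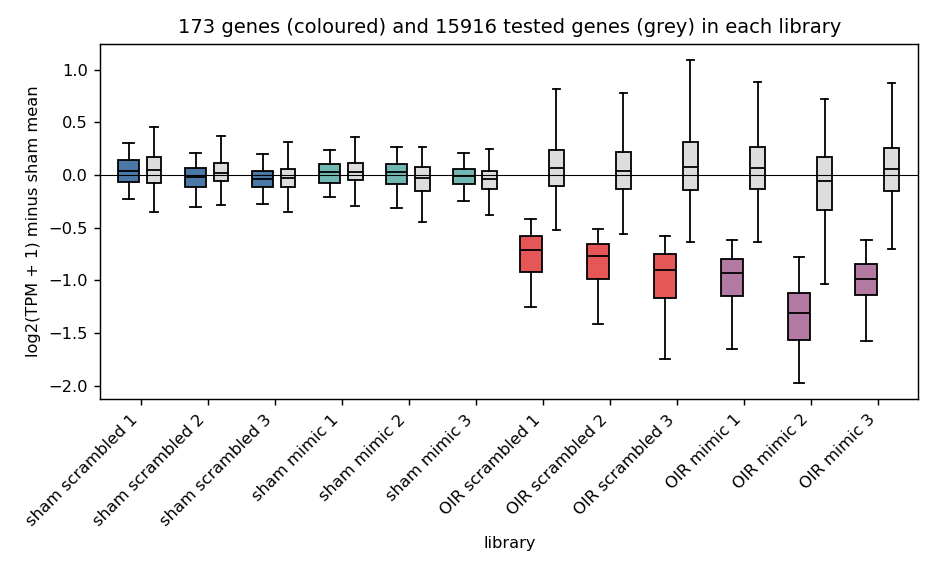
Box plots of log2(TPM + 1) minus the sham mean in each library for the 173 genes (coloured by group) and for the 15916 tested genes (grey); boxes span the quartiles, the line is the median and whiskers reach the 5th and 95th percentiles. The coloured boxes of the 6 OIR libraries lie below 0, lowest in OIR mimic replicate 2 with a median of -1.31, while the grey boxes stay near 0.

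OIR mimic replicate 2 was the lowest of the 6 OIR libraries for 109 of the 173 genes (63.0%), and for 43.4% of tested genes. OIR scrambled replicate 3 was the lowest for 25 genes, OIR mimic replicates 1 and 3 for 15 each, OIR scrambled replicate 2 for 5 and OIR scrambled replicate 1 for 4. At the other end, OIR scrambled replicate 1 was the highest for 83 genes (48.0%, against 22.3% of tested genes) and OIR scrambled replicate 2 for 40. The 109 genes lowest in OIR mimic replicate 2 had median differences of -0.64, -0.74 and -0.84 in the scrambled libraries, -0.88 and -0.96 in OIR mimic replicates 1 and 3, and -1.46 in OIR mimic replicate 2. The 25 genes lowest in OIR scrambled replicate 3 had -1.69 in that library and -0.88 to -1.18 in the other 5. Sorting genes by their lowest library makes the median in that library low by construction, so these profiles are a description. These 25 fell more in all, with a median rule difference of -1.13 against -0.90 for the 109. OIR mimic replicate 2 was thus low for genes outside the set too, and the part of this in the result was not tested.

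Over the 6 OIR libraries, the genes of the set varied together. The median Pearson r between pairs of the 172 genes that varied was 0.446 and the mean 0.361, against a mean of 0.0917 between pairs of tested genes. Without OIR mimic replicate 2 the mean over the set was 0.238, and the value for tested genes was not computed. All pairs share the same 6 libraries and their depth. The set was also chosen by its values in these libraries, so the correlations are a description.

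Recovered lengths of the set ran from 80 to 11887 bases with a median of 2337, against 2143 for all tested genes. There were 19 genes up to 1000 bases (10.98%), where tested genes had 19.2%. A further 52 (30.1%, against 27.1%) had 1000 to 2000 bases, 68 (39.3%, against 35.6%) had 2000 to 4000, and 34 (19.7%, against 18.2%) had more. In OIR mimic replicate 2 the median of all tested genes went from -0.00153 in the shortest class to -0.17 in the longest. The set went from -1.28 to -1.41 in that library over the same classes. In OIR scrambled replicate 1 the medians of the set were -0.90 in the shortest class and -0.70 in the longest, so the order of the classes was not the same in each library. The part of gene length in the falls was not tested.

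Split by the RNA given, the set fell in both arms. The median difference between OIR and sham was -0.82 with scrambled RNA, over a range of -2.73 to -0.44, and -1.07 with the mimic, over a range of -3.94 to -0.64. With scrambled RNA 92 genes lay below -0.8, with the mimic 167, and in both arms 86. The shares of all tested genes below -0.8 in each arm were not computed, so these counts are not read as particular to the set. The fall was larger with the mimic for 143 of 173 genes. The typical SE of a difference was 0.17. Of all tested genes, 54.3% had the lower difference with the mimic. These counts use the contrast that chose the genes and are given as a description.

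**Figure D4:**
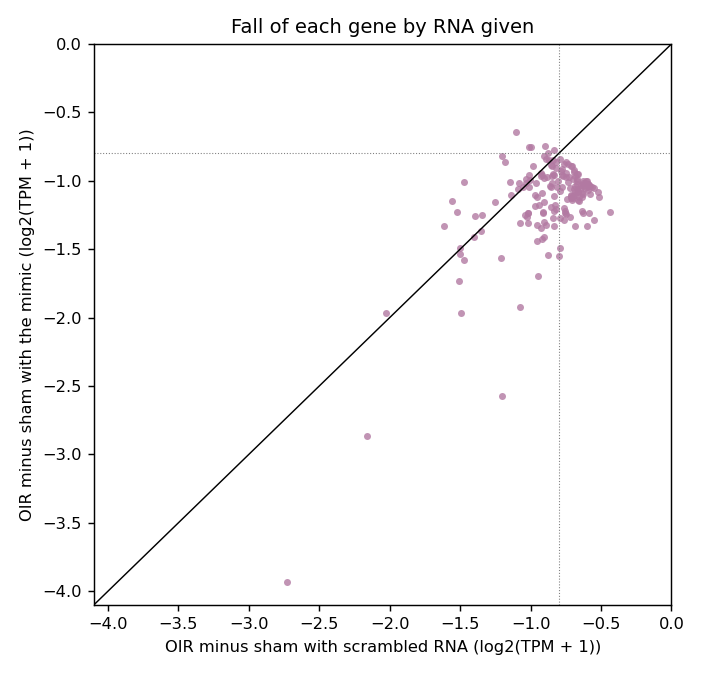
For each of the 173 genes, the difference between OIR and sham with scrambled RNA (x axis) against that with the mimic (y axis), both in log2(TPM + 1); the solid line marks equality and dotted lines mark -0.8. Most points lie below the line of equality, as 143 of 173 genes fell more with the mimic.

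Whether the mimic changed these genes within OIR retinas is another contrast, tested with limma over all 15916 genes. It uses OIR libraries whose values also chose the set. No gene of the set passed the threshold (0 of 172, smallest Benjamini-Hochberg adjusted p in the set 0.453 with limma), as no gene of the table did (0%). Voom on the recovered reads also called 0. The estimates nevertheless leaned one way. Of the 172 tested genes of the set 148 were lower with the mimic in OIR, with a median of -0.28, while 62.5% of all tested genes were lower, with a median of -0.05. At an unadjusted p below 0.05, 65 genes of the set were lower (37.8%) and 0 were higher. The same share of all tested genes was 7.5% lower and 1.87% higher, 1491 genes in all. In 55 of the 173 genes each OIR mimic library lay below each OIR scrambled library (31.8%), against 9.01% of tested genes. In 1 gene each lay above, against 3.64% of tested genes.

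**Figure D5:**
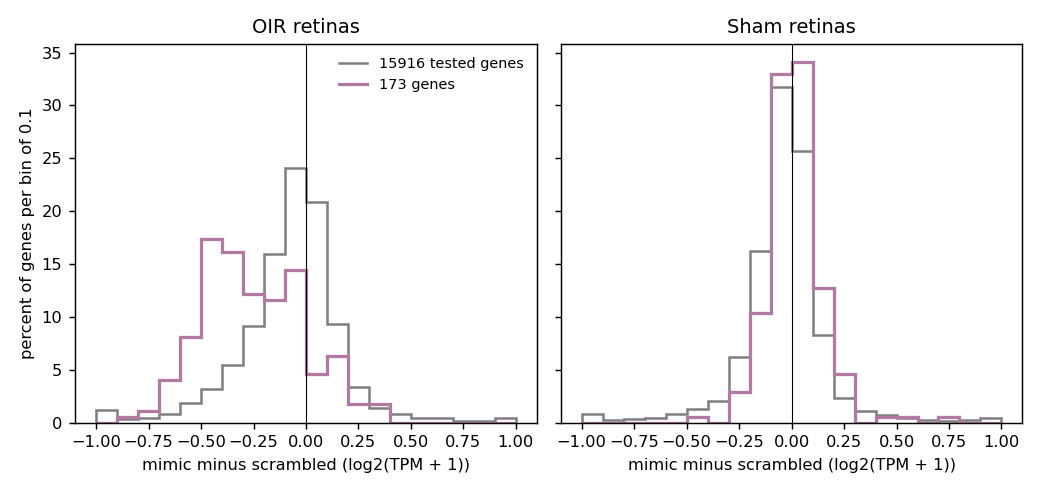
Share of genes per bin of 0.1 in the difference between mimic and scrambled RNA (log2(TPM + 1)), in OIR retinas (left) and sham retinas (right), for the 173 genes and for the 15916 tested genes; the end bins also hold values beyond -1 and 1. In OIR retinas the 173 genes sit left of the tested genes, around a median of -0.28 against -0.05, and in sham retinas both sit around 0.

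This lean is not independent of how the set was chosen. The OIR mean of the rule includes the mimic libraries, and the genes of the set varied more among them (median SD 0.27) than among the OIR scrambled libraries (0.16). The genes also varied together over the 6 OIR libraries (mean r 0.361, against 0.0917 between tested genes), so the counts above are not counts of independent genes. Without OIR mimic replicate 2 the median became -0.15 over the 172 genes, and 36 were lower at an unadjusted p below 0.05 (20.9%, against 3.14% of tested genes). Without OIR scrambled replicate 1 it was 37 genes (21.5%, against 4.58%). When the set was also chosen again without OIR mimic replicate 2, it held 117 genes, of which 116 were tested. Their median was -0.10, 87 were lower, and 18 (15.5%) were lower at that unadjusted p. Of all tested genes without that library, 52.2% were lower, with a median of -0.007, and 3.14% at that unadjusted p. The last of these settings was chosen after seeing the data. The set chosen again came from the same remaining libraries that were then compared, so its counts are not independent of the choice either. Leaving out OIR mimic replicate 1 gave 2 calls in the set and 25 in the table (limma, adjusted p below 0.05). At the unadjusted p, 80 genes of the set were then lower (46.5%, against 12.2% of tested genes). Leaving out both libraries that lack condition tags, OIR scrambled replicate 3 and OIR mimic replicate 1, gave 2 calls in the set and 28 in the table, with a smallest adjusted p in the set of 0.0456 by limma. At the unadjusted p, 84 genes of the set were then lower (48.8%, against 10.5%).

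The genes of the set with the smallest p in this contrast had ranks 32 and 123 by fall. The first had 11.19, 11.02 and 10.18 TPM in the OIR scrambled libraries and 8.75, 5.88 and 6.54 TPM in the OIR mimic libraries. Its sham values were 18.5 to 20.5 TPM with scrambled RNA and 20.8 to 21.7 TPM with the mimic, so the order of the arms was the opposite there. The difference in OIR was -0.56 (SE 0.12), with an adjusted p of 0.453 by limma, so it was not called. Without OIR mimic replicate 1 its estimate was -0.71 and it passed the threshold. The second had 69.6, 73.4 and 66.7 TPM with scrambled RNA and 58.7, 47.5 and 53.8 TPM with the mimic in OIR. The difference was -0.39 (SE 0.087), with the same adjusted p of 0.453 by limma.

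In sham retinas the median difference between mimic and scrambled RNA was 0.01 over the set, with 81 of 172 genes lower, while 60.2% of all tested genes were lower. These shares moved with the scaling. After median-ratio scaling the median was 0.04 with 61 of 172 lower, against 49.5% of tested genes, and by voom it was 0.04 with 63 lower, against 51.5%. No gene of the set or of the table was called (limma, 0 of 15916, 0%, with 333 at an unadjusted p below 0.05 and 0 by voom). At that unadjusted p, 0 genes of the set were lower and 1 was higher, against 1.23% and 0.861% of tested genes. That gene, of rank 116 by fall, had 32.5, 33.4 and 37.9 TPM with scrambled RNA and 39.2, 45.5 and 42.8 TPM with the mimic, a difference of 0.29 (SE 0.11, limma adjusted p 1). The next, of rank 21, had 1.59 ± 0.399 TPM with scrambled RNA and 2.65 ± 0.57 TPM with the mimic (SD, n = 3 each), and its estimate of 0.50 (SE 0.26) passed neither threshold. Each sham mimic library lay below each sham scrambled library in 5 genes of the set (2.89%, against 3.92% of tested genes) and above in 6 (3.47%, against 2.83%).

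The interaction is the difference in OIR minus that in sham. It and the average over both conditions use the same libraries that chose the set, so the limit on independence given for OIR holds for their counts too. It called 0 genes of the set and 0 of the table (limma, 0%, with 589 at an unadjusted p below 0.05 and 0 by voom). Its median over the set was -0.29, against -0.02 over all tested genes. Of the 172 estimates 142 were negative (82.6%, against 54.3% of tested genes). At an unadjusted p below 0.05, 30 genes of the set were negative (17.4%, against 2.69% of tested genes) and 0 were positive (against 1.01%). Leaving out OIR mimic replicate 1 gave 61 (35.5%, against 5.95% of tested genes), and leaving out OIR scrambled replicate 1 gave 18 (10.5%, against 1.94%). Without OIR mimic replicate 2 the count was 24, against 1.85% of tested genes. Ranks 32 and 123 again had the smallest p. Their estimates were -0.70 (SE 0.17) and -0.46 (SE 0.12), and neither was called (limma, adjusted p 1 for both). Averaged over OIR and sham, the mimic called 0 genes (limma, 0%, with 1142 at an unadjusted p below 0.05 and 0 by voom). Of the set, 24 genes were lower at that unadjusted p (against 5.38% of tested genes) and 0 were higher (against 1.79%). With 1 library left out the 24 became 9 to 63. The lowest came without sham scrambled replicate 1 (5.23%, against 3.09% of tested genes) and the highest without OIR mimic replicate 1 (36.6%, against 11.4%). The smallest p in the set were those of ranks 107 and 103, at -0.39 (SE 0.11) and -0.24 (SE 0.075), each with an adjusted p of 0.632 by limma.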

How the data were processed

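RNA-seq of 12 retinal libraries, prepared as miRNA libraries per the labels' protocols, was used as 1 table of TPM that the authors deposited, with 32883 Ensembl identifiers. FastQC, TopHat, Cufflinks, Cuffdiff and rn6 appear, without roles, in the submitters' processing notes. The counter and annotation: not given in the sources used here. Columns were matched to samples through the lines above the table, with 0 left over. Condition tags are missing from OIR mimic replicate 1 and OIR scrambled replicate 3, which were grouped by title. Mimic columns bear the letter L and scrambled columns R, and the column numbers of sham and OIR do not overlap, so neither can be told apart from the groups. One number is shared by sham scrambled replicate 1 and sham mimic replicate 1.

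Values of log2(TPM + 1) for 15916 genes entered a limma fit (version 3.58.1, R 4.3.3; 1 mean per group, 8 residual degrees of freedom, eBayes with trend and robust options), and p-values were adjusted by Benjamini-Hochberg over all of them, with a threshold of 0.05. Whole reads and gene lengths were recovered for 22310 of 22310 rows above 0, with a tolerance of 0.02, taking the smallest whole numbers that fit, so both may be multiples of those given where reads are few. Intervals of these reads would cover counting error only. Scripts were tested on simulated data. In all 12 pairs, replicates were further apart than counting error gives (chi-square per degree of freedom 4.54 to 22.1).

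The members and lists were chosen with earlier results of these data known. Lists by gene symbol, cell type markers and promoter motifs could not be used, because 0 identifiers matched a symbol. The rule for described genes took the 2 largest falls at a sham mean of at least 5 TPM by identifier, the 20 largest falls, 5 genes on each side of the threshold and the 2 smallest p per comparison; the gene of rank 3 and the most abundant genes were added after seeing the values. Alternatives were other pseudocounts, filters and scalings, a replicate block, libraries left out and, added later, voom on recovered reads and the set chosen again.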

Additional observations from a re-analysis of the deposited data

Results flagged for a closer look

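Among the genes described singly and the 2 summaries of the set, 22 groups of 6 libraries were searched for a library whose gap to the nearest other exceeds the critical share of the range (Dixon's criterion), and 4 were found, where chance flags about 1 in 20. The gene of rank 3 by fall had 0.042 TPM in OIR scrambled replicate 3 and 0 in the other OIR libraries, a difference of 1 read. The gene at 0 in each OIR library had 1.39 TPM in sham mimic replicate 3, which is 2 reads. The gene of rank 70, 3 by sham level, had 575 TPM in sham mimic replicate 2, above the other sham libraries. The gene of rank 125, 4 by sham level, had 140 TPM in OIR mimic replicate 2, below the other OIR libraries. Over the whole set, 11 of 173 genes had such a library in sham and 20 in OIR. The same search was not made over all tested genes, so these counts are not read as particular to the set.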

How the results depend on the processing

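The number of genes in the set was 285 with a pseudocount of 0.1, 222 with 0.5, 209 after median-ratio scaling, 211 without the 2 untagged libraries and 64 with a threshold of -1. With 1 library left out it was 117 to 229. The 173 genes were all in the sets of both pseudocounts and of the scaling, and 57 of them were lost without OIR mimic replicate 2. Genes called for the mimic in OIR were 1 with a pseudocount of 0.1, with no filter and with eBayes without trend and robust options, 28 without the untagged libraries, and 0 to 25 with 1 library left out (25 without OIR mimic replicate 1). In sham they were 2 with a pseudocount of 0.1, 1 with 0.5, and 0 to 1 with 1 library left out (1 without sham scrambled replicate 3, sham mimic replicate 2 or OIR scrambled replicate 1). Averaged, they were 1 with no filter, without the untagged libraries and without trend and robust options, and 0 to 1 with 1 left out (1 without sham scrambled replicate 3, sham mimic replicate 2 or OIR mimic replicate 1). The interaction gave 2 with a pseudocount of 0.1, 1 with no filter, 1 without trend and robust options, and 0 to 1 with 1 left out (1 without sham mimic replicate 2). The count of genes of the set lower with the mimic in OIR at an unadjusted p below 0.05 was 36 to 80 with 1 library left out, 84 without the untagged libraries and 18 with the set chosen again. The causes were not tested. The replicate block called 0 genes in each of the 4 comparisons. Same-numbered libraries had correlations of -0.0394 to 0.258 in 12 pairs. Their own number matched best in 2 of 6 pairs within a condition and in 4 of 6 across conditions, so the replicate numbers were not taken as a pairing. The highest correlation was that of sham scrambled replicate 1 and sham mimic replicate 1, whose columns share a number. The median over the set for the mimic in OIR kept its sign over 21 alternatives (-0.41 to -0.15). Several of these cannot move it, such as leaving out a sham library, the replicate block or other eBayes options. With the set chosen again without OIR mimic replicate 2 it was -0.10. In sham the median ran from -0.01 to 0.04, with 0.04 after median-ratio scaling. Depth limits the genes with few reads.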
